A study of Mus musculus with 34 samples.

Results

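The genes described are 8 components of the synaptic vesicle and of the SNARE machinery that fuses it with the plasma membrane: the synapsins Syn1 (NM_013680) and Syn2 (NM_013681), synaptophysin Syp (NM_009305), the vesicle glycoprotein Sv2a (NM_022030), the calcium sensor synaptotagmin Syt1 (NM_001252341), and the SNARE proteins Vamp2 (NM_009497), Snap25 (NM_011428) and Stx1a (NM_016801). They were taken by symbol. All 8 were among the 11531 genes listed in the tissue tables of ribosome footprints (RPF) and of RNA. All 8 were also among the 10379 genes listed for hippocampal primary culture, and 2 of them, Syn1 and Stx1a, among the 11029 genes listed for mouse embryonic stem cells (ESC). All 8 passed the filter on low values (a mean signal of at least 1) in both tissue tables, and all 8 had a signal of at least 1 in both kinds of culture library. Neither of the 2 genes in ESC had that in both kinds.

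The tissue was hippocampus of C57BL/6N mice, taken without a stimulus (control) or at 5 min, 10 min, 30 min or 4 h after conditioning to a context, for which 148 s in a chamber ended with a foot shock of 2 s. The labels describe handling for all mice before conditioning, and give neither age nor whether a sample was 1 mouse or a pool. Each of the 5 groups had 3 RPF and 3 RNA libraries. The culture was also from C57BL/6N mice. The ESC were of the line A3-1 and had been given a luciferase siRNA. Culture and ESC had 1 library of each kind. A footprint is the stretch of mRNA covered by a ribosome, so the RPF signal counts ribosomes on the mRNA, the RNA signal counts the mRNA, and their ratio is called translational efficiency (TE). The labels do not say whether replicates came from separate animals, so a p-value speaks only of the spread between these libraries, and that spread may be technical. Tissue RPF libraries held 14240563 to 30480009 reads on listed genes and tissue RNA libraries 16814796 to 25515210, and no member rested on fewer than 784 reads in any of them. The deposited value, called signal, is a read number divided by 1 divisor per library.

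A synaptic vesicle is filled with transmitter and tethered to other vesicles by synapsins, and it releases its content when calcium binds synaptotagmin. Vamp2 on the vesicle zips with Stx1a and Snap25 on the plasma membrane into a bundle of helices that pulls both membranes together. Synaptophysin is an abundant vesicle protein that binds Vamp2, and Sv2a is a transporter-like glycoprotein that binds Syt1 and the drug levetiracetam. The whole set is made by neurons, and transcription of several such genes is held down outside neurons by the repressor REST, which binds the RE1 element.

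The promoter windows of Syn1, which was listed in ESC and has a known RE1, of Stx1a, the other member listed in ESC, and of Syp, which was not listed there, are shown for comparison. No promoter activity or binding was measured. Each window runs from 250 bases before to 50 bases after the start of transcription, from RefSeq on build GRCm38.p6, which is not the build the reads were aligned to (mm9). Capitals mark exact matches, on either strand, to TGACGTCA (the cAMP response element, CRE), TTCAGCACC (the left part of RE1), GGGCGG (the GC box) or TATAAA (the TATA box).
Syn1, chrX:20920869-20921168, minus strand: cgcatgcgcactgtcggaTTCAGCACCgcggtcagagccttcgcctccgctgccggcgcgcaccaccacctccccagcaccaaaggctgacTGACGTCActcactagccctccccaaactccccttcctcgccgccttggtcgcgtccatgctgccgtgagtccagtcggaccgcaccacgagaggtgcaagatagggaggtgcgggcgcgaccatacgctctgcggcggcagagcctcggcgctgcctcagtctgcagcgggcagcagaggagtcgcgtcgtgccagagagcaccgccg
Stx1a, chr5:135023232-135023531, plus strand: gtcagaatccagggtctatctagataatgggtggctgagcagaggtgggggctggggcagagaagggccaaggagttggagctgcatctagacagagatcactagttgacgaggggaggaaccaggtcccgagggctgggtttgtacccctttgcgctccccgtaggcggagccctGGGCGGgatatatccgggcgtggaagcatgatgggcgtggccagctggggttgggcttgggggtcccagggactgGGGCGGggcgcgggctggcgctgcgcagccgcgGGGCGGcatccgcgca
Syp, chrX:7638330-7638629, plus strand: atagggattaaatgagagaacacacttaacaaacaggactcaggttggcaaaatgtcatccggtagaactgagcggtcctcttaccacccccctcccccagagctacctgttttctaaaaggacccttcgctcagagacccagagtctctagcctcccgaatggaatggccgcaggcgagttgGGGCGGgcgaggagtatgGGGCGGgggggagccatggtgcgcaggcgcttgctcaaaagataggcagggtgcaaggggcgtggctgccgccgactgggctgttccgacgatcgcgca
The Syn1 window held 1 CRE, 159 bases before the start, and 1 RE1 left part, 232 bases before it, and no GC box. The CRE was found in 1.801% and the RE1 left part in 0.372% of all 32544 windows of this length. The Stx1a window held 3 GC boxes and the Syp window 2, a motif present in 35.9% of windows. Of the 6 members with a window, Syn2, Sv2a and Syt1 also held a GC box in at least 1 window, and no member but Syn1 held a CRE or the RE1 part. None held TATAAA, which 13.6% of windows hold. The match is a description of letters and not a measured site. Vamp2 and Snap25 were not matched to a window.

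The mRNAs of these genes carried a high ribosome load. In control hippocampus all 8 had more RPF signal per RNA signal than the median gene, by 1.504-fold for Stx1a to 6.45-fold for Syn1. All 8 passed the test (limma on log2(signal + 1), each library centred on its median gene, Benjamini-Hochberg adjusted p at most 4.75e-07 for any member), and of the 7103 genes tested 76.6% were called, 41.8% as higher and 34.8% as lower. The median of the members was 1.16 on the log2 scale, against 0.06 over all genes tested. Marker lists of other kinds lay high as well: 7 of 8 neuron markers (median 1.07), 8 of 8 microglia markers (0.87) and 7 of 8 oligodendrocyte markers (0.89) were called higher, against 4 of 8 astrocyte markers (0.05). Transcript length cancels in this ratio, but the share of each transcript that is coding, and which part of it was counted, were not given in the sources used here. A ratio can also move with the length of the untranslated parts.

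Syn1, a phosphoprotein that tethers vesicles to one another and to actin, stood first among the members. Its RPF signal was 28.8, 26.9 and 24.4 in the 3 control samples, and its RNA signal 3.48, 3.24 and 3.40. The ratio of the means was 7.91. Relative to the median gene TE was 2.69 on the log2 scale (SE 0.09), rank 13 of 7103 genes. Syn2, the paralogue that serves mainly excitatory terminals, had RPF signals of 34.4, 35.1 and 35.4 and RNA signals of 21.6, 20.8 and 21.1. Its ratio was 1.65 and its TE 0.73 (SE 0.07), and the 95% intervals of the paralogues' TE, 2.49 to 2.88 for Syn1 and 0.57 to 0.88 for Syn2, did not overlap.

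Among the SNARE proteins Vamp2, the vesicle SNARE of fast release, was highest. Its control RPF signals were 33.8, 41.4 and 40.9 and its RNA signals 8.38, 9.28 and 8.85, a ratio of 4.37 and a TE of 2.04 (SE 0.14, rank 59). Snap25, the palmitoylated SNARE of the plasma membrane, had RPF signals of 164, 174 and 187 and RNA signals of 74.0, 76.9 and 89.1, which gave a TE of 1.15 (SE 0.13, rank 472). Stx1a, the membrane-anchored syntaxin, was lowest of the 8. Its RPF signals were 7.14, 7.07 and 6.997 and its RNA signals 4.68, 4.402 and 4.35, a ratio of 1.58 and a TE of 0.59 (SE 0.08, rank 1541). The 3 partners of 1 fusion complex thus did not share a TE: the 95% interval of Vamp2 (1.74 to 2.33) lay above those of Snap25 (0.88 to 1.41) and Stx1a (0.43 to 0.75).

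The vesicle proteins lay between these ends. Sv2a had RPF signals of 44.5, 34.3 and 38.2 and RNA signals of 17.5, 13.5 and 16.8 in control samples (TE 1.27, SE 0.12). Syp had RPF signals of 185, 167 and 192 and RNA signals of 93.5, 70.3 and 81.9 (TE 1.17, SE 0.11). Syt1, the calcium sensor, had RPF signals of 154, 123 and 157 and RNA signals of 96.9, 70.1 and 80.7 (TE 0.83, SE 0.12). In the order Syn1, Vamp2, Sv2a, Syp, Snap25, Syt1, Syn2 and Stx1a, the 95% intervals of the neighbours Syn1 and Vamp2, and of Vamp2 and Sv2a, did not overlap, and those of all 5 later pairs of neighbours did. Overlap of intervals is no test, and the differences between neighbours were not tested. In the single control samples, all 3 values of Snap25 lay above all 3 of Syt1 and all 3 of Syn2 above all 3 of Stx1a, while those of the other overlapping neighbours mixed. The interval of Sv2a (1.02 to 1.52) lay wholly above that of Stx1a.

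**Figure D1:**
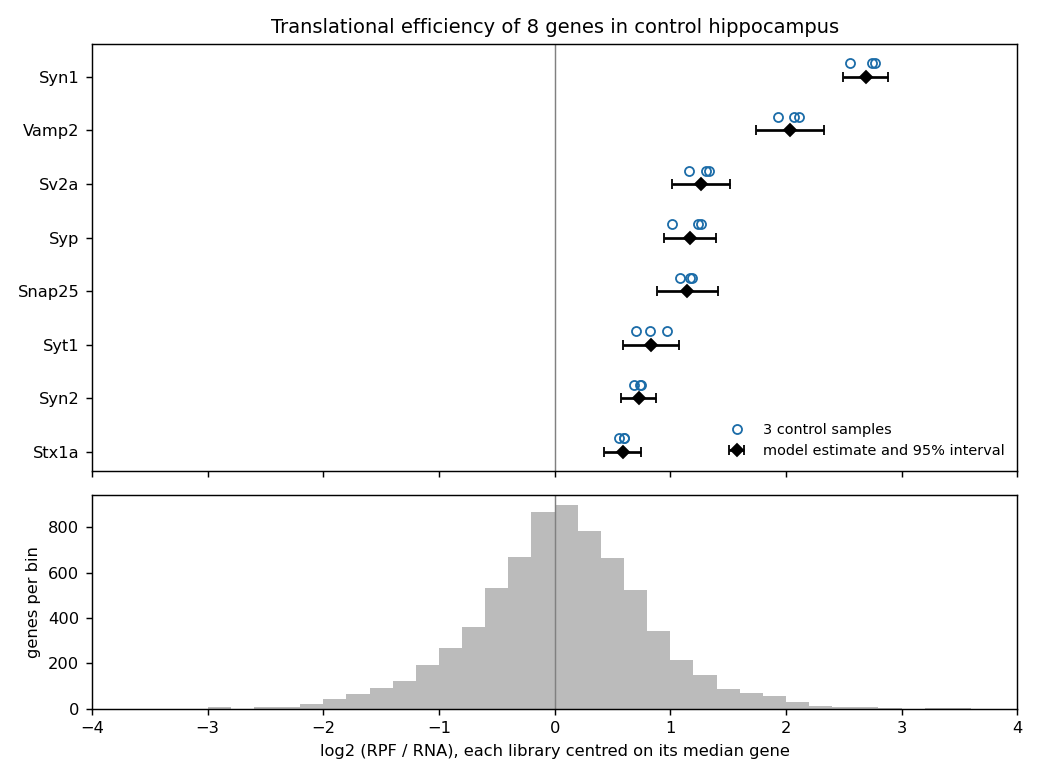
TE of the 8 genes in control hippocampus (top: diamonds with 95% intervals are the model estimates, open circles the 3 control samples) above the number of genes at each TE for all 7103 genes tested (bottom), both on the log2 ratio of RPF to RNA centred on the median gene. All 8 genes lie right of 0, Syn1 at 2.69 and Stx1a at 0.59 at the ends.

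Over the 15 pairs of RPF and RNA libraries with the same group and replicate number, each member lay above the median gene in 15 of 15. Syn1 ranked between 9 and 18 and Vamp2 between 45 and 119 of 7103 genes. Syp ranked between 352 and 718, Syt1 between 603 and 1381 and Syn2 between 888 and 1432, wider spans of ranks than that of Syn1. A span of ranks also depends on how many genes lie near that TE. In control, 521 genes had a TE of 0.6 to 0.8 and 6 genes one of 2.6 to 2.8. On the log2 scale TE ran between 2.55 and 2.88 for Syn1 and between 0.67 and 0.88 for Syn2. By that scale Syn1 was not steadier than Syn2. Stx1a, the lowest, ranked between 1210 and 1757, and its ratio to the median gene ran between 1.44-fold and 1.65-fold. The span of Syp was the widest by fold, between 1.97-fold and 2.67-fold, followed by that of Syt1, between 1.59-fold and 2.10-fold.

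The rest of the vesicle cycle did not share one TE. Of the 15 subunits and accessory proteins of the vesicular proton pump that were tested, 13 were called higher than the median gene and none lower, with a median of 0.76 on the log2 scale. Of 13 other vesicle membrane proteins 8 were higher and 2 lower (median 0.50), of 29 endocytosis and Rab genes 19 were higher and 6 lower (median 0.43), and of 13 other synaptotagmins and C2 sensors 7 were higher and 2 lower (median 0.23). The remaining SNAREs, most of them of the endosome, Golgi and constitutive pathways, were split with 5 higher and 5 lower of 16 (median 0.01). So were the regulators of SNARE assembly, with 6 higher and 5 lower of 13 (median -0.04). The extremes were Sncb (beta-synuclein, TE 3.41), Slc32a1 (the vesicular GABA transporter, 2.70) and Dnm1 (the neuronal dynamin, 2.11) at the top, and Rab27b (a Rab of secretory granules, -1.50), Vti1b (an endosomal SNARE, -1.31) and Stxbp5l (a tomosyn that binds syntaxin, -0.99) at the bottom.

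After conditioning, no member passed the test in footprints, RNA or TE at any time. In RPF, limma called 0 of 7898 genes at each of the 4 times (0.0%), with 51, 26, 20 and 42 genes at an unadjusted p under 0.05 at 5 min, 10 min, 30 min and 4 h. In RNA it called 0 of 8061 genes at each time (0.0%), with 84, 150, 118 and 209 at an unadjusted p under 0.05, and in TE 0 of 7103 (0.0%), with 50, 58, 16 and 44. All these counts lay below the share of 0.05 that would be reached with no change in any gene. This model had no block, so the spread between replicate numbers stayed in its error. limma's voom weights on the recovered reads also called 0 genes at each time in all 3 measures. With the replicate number as a block, limma with or without voom called at most 4 genes at any time in RPF, 3 in RNA and 1 in TE, none of them a member.

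The estimates for the members were small. In RPF their log2 changes ran from -0.09 (Stx1a at 30 min) to 0.11 (Syp at 5 min), in RNA from -0.09 (Stx1a at 5 min) to 0.11 (Syp at 30 min) and in TE from -0.10 (Vamp2 at 10 min) to 0.08 (Sv2a at 5 min). The 95% intervals reached from -0.38 to 0.39 in RPF, from -0.28 to 0.42 in RNA and from -0.47 to 0.49 in TE, as the extremes over all members and times. These bounds come from the model without the replicate number, which adds the spread between numbers to the error. With the number as a block they reached from -0.23 to 0.27 in RPF, from -0.20 to 0.22 in RNA and from -0.28 to 0.26 in TE. Of those 96 intervals 1 left out 0, that of Syp RNA at 30 min (0.01 to 0.21), which did not pass the adjusted test (adjusted p = 0.457 by limma). Syp is the member with the largest positive estimates in RPF and in RNA. Its RPF signal averaged 195 ± 9.4 at 5 min, against 181 ± 13 in control (SD, n = 3 each), and was higher in 3 of 3 replicate numbers, with overlapping groups.

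Stx1a was the member whose groups parted most often, always downward. Its RPF signals were 6.24, 6.56 and 6.94 at 10 min and 6.50, 6.24 and 6.99 at 30 min, against 7.14, 7.07 and 6.997 in control. Its RNA signals were 4.18, 4.08 and 4.15 at 5 min and 4.13, 4.32 and 4.14 at 10 min, against 4.68, 4.402 and 4.35 in control. In these 4 comparisons every sample lay below every control sample, with changes of the means between -7.62% and -6.25%. None passed the test (unadjusted p between 0.188 and 0.296 by limma without the block). The control samples of Stx1a in RPF lay within 6.997 to 7.14, so that small shifts part the groups. Syn2 in RPF at 5 min was the only other such case, with 33.5, 32.8 and 34.4 against 34.4, 35.1 and 35.4 in control. Of all genes tested, 1.24% in RPF at 10 min, 0.405% at 30 min and 3.06% at 5 min, and in RNA 1.76% at 5 min and 1.29% at 10 min, lay wholly below control in the same way.

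**Figure D2:**
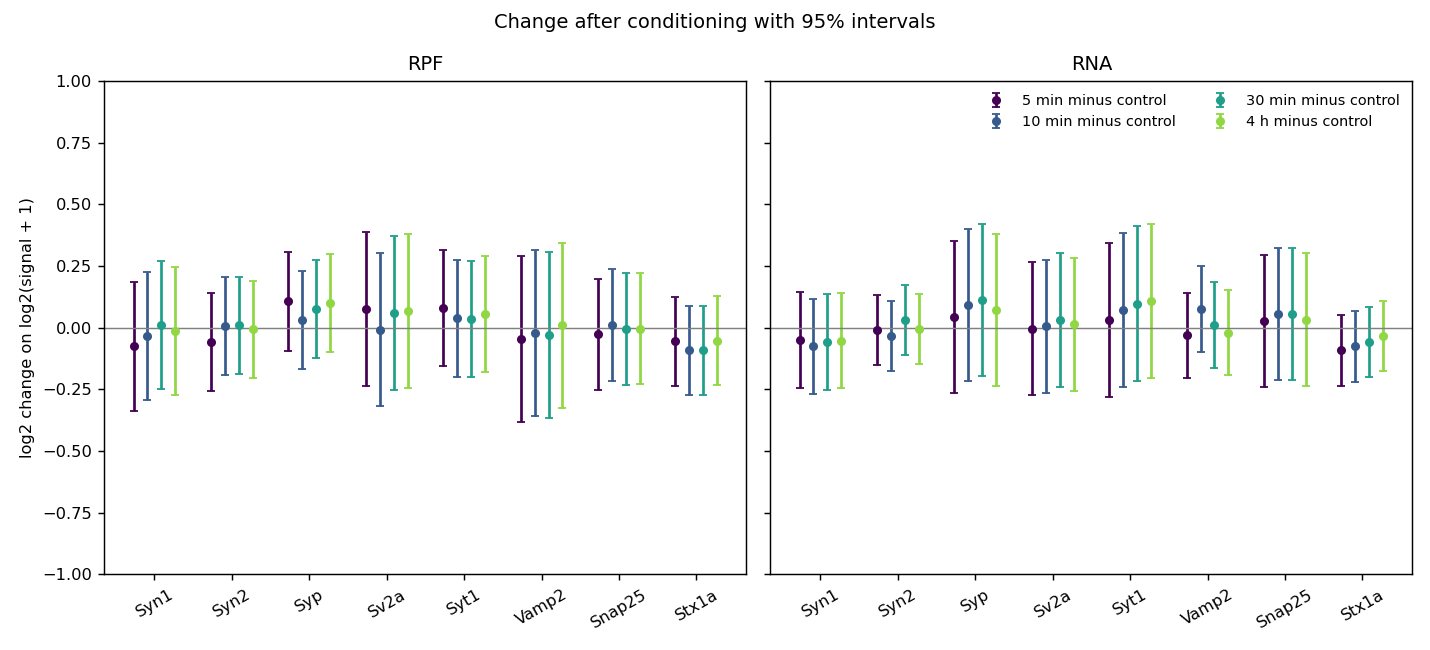
Log2 change of each gene at 5 min, 10 min, 30 min and 4 h after conditioning relative to control, in RPF (left) and RNA (right), with 95% intervals of the model over 15 libraries each. All intervals include 0, and the points lie between -0.09 and 0.11.

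The pathway genes gave no called change either. Ranked by unadjusted p, the first in RPF was Snap23, the SNAP-25 paralogue of non-neuronal secretion, at 30 min. Its RPF signal averaged 0.957 ± 0.013 at 30 min, against 1.19 ± 0.12 in control (SD, n = 3 each, log2 change -0.16, adjusted p = 1.00 by limma). Syt2 at 5 min (0.18) and Snap23 at 4 h (-0.10) came next. The first in RNA were Syt14, a synaptotagmin that does not bind calcium, at 4 h (0.17) and at 10 min (0.13), and Rab27b at 30 min (0.14). None was past the threshold of 0.05 after adjustment.

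**Figure D3:**
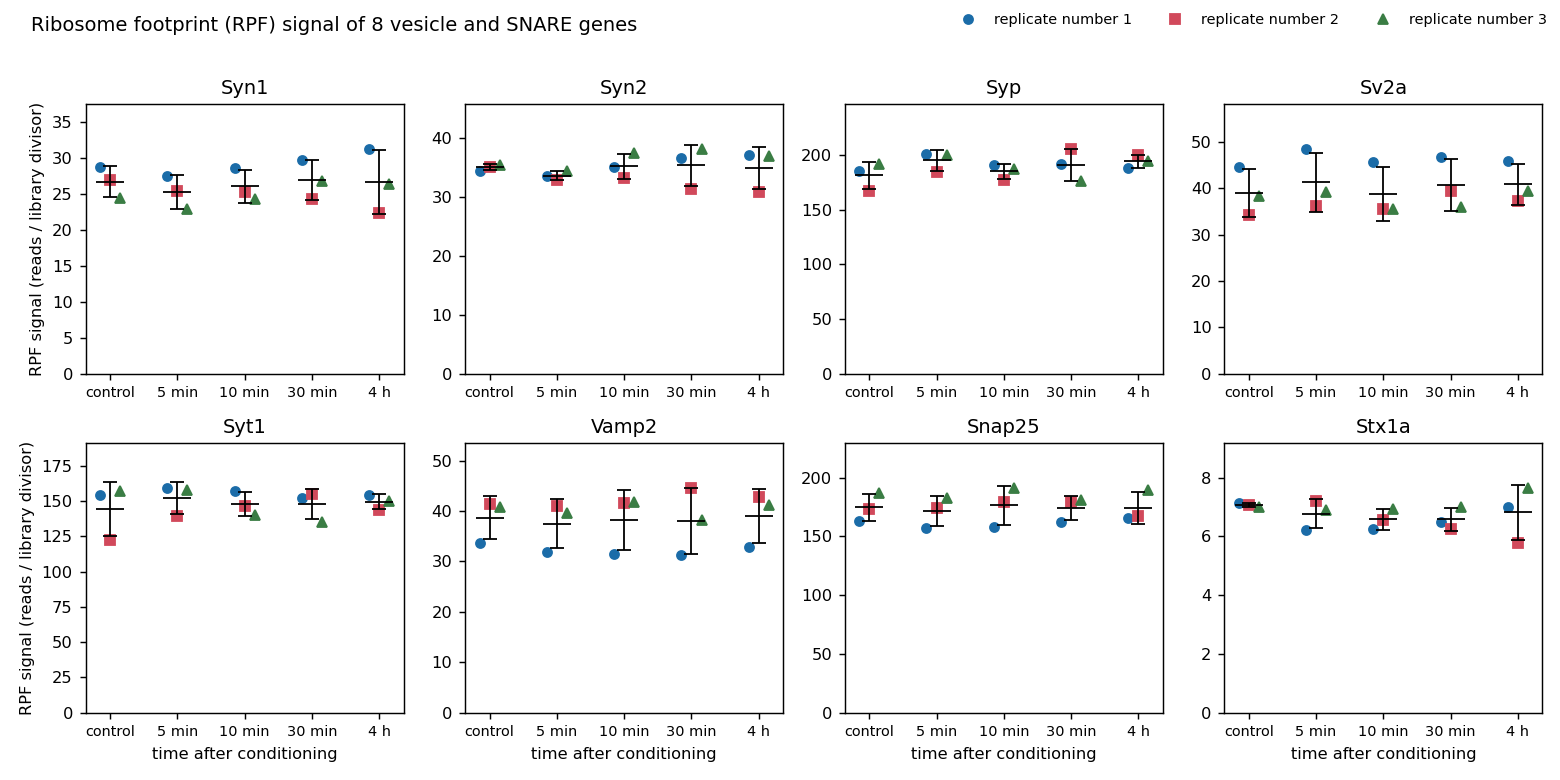
RPF signal of the 8 genes in each of 15 tissue libraries by time after conditioning, with the mean and SD of 3 replicates in black and the symbols giving the replicate number of the labels. Vamp2 of number 1 lies below numbers 2 and 3 at every time, and Sv2a of number 1 above them.

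Most members, like most genes tested, varied with the replicate number of the labels. A moderated F-test of the number, with the group in the model, called 5 of 8 members in RPF and 7 of 8 in RNA (limma, Benjamini-Hochberg, threshold 0.05), against 73.1% of all genes tested in RPF and 65.5% in RNA. The labels do not say what a number stands for. Directions were not shared among the 8 genes: Vamp2 and, in RPF, Snap25 were lowest in number 1, while Syp, Sv2a, Syt1 and Syn1 had their highest mean in it in both kinds.

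Vamp2 showed it most in RPF. Its footprint signals were 33.8, 31.9, 31.4, 31.3 and 32.9 in number 1 for control, 5 min, 10 min, 30 min and 4 h, 41.4, 41.0, 41.6, 44.5 and 42.8 in number 2, and 40.9, 39.6, 41.7, 38.3 and 41.2 in number 3. All 5 libraries of number 1 lay below all 10 others (adjusted p = 8.12e-07 by limma). Its RNA differed less, with means over the 5 groups of 8.25, 9.22 and 9.22 in numbers 1, 2 and 3 (adjusted p = 0.0018 by limma). Snap25 RPF averaged 162, 175 and 186 in the 3 numbers with no overlap between any of them. Its RNA averaged 76.5, 76.7 and 93.0, so that number 3 lay above the other libraries and numbers 1 and 2 overlapped.

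Sv2a went the other way. Its RPF averaged 46.2, 36.5 and 37.6 and its RNA 17.9, 14.04 and 16.2 in numbers 1, 2 and 3 (adjusted p = 5.22e-06 and 6.69e-08 by limma). Syn1 RPF was 29.2 in number 1, against 24.9 and 24.9 in the others. Syp and Syt1 parted only in RNA. Their RNA averaged 97.5, 75.3 and 84.1 (Syp) and 98.8, 77.8 and 81.5 (Syt1) in numbers 1, 2 and 3, with number 1 above all others, while in RPF the adjusted p was 0.836 for Syp and 0.159 for Syt1 by limma. Whether the difference between RPF and RNA in this respect is itself larger than the error was not tested. Stx1a was not called in either kind (adjusted p = 0.149 in RPF and 0.110 in RNA by limma), and Syn2 was called in both with at most a 1.12-fold span of the means.

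**Figure D4:**
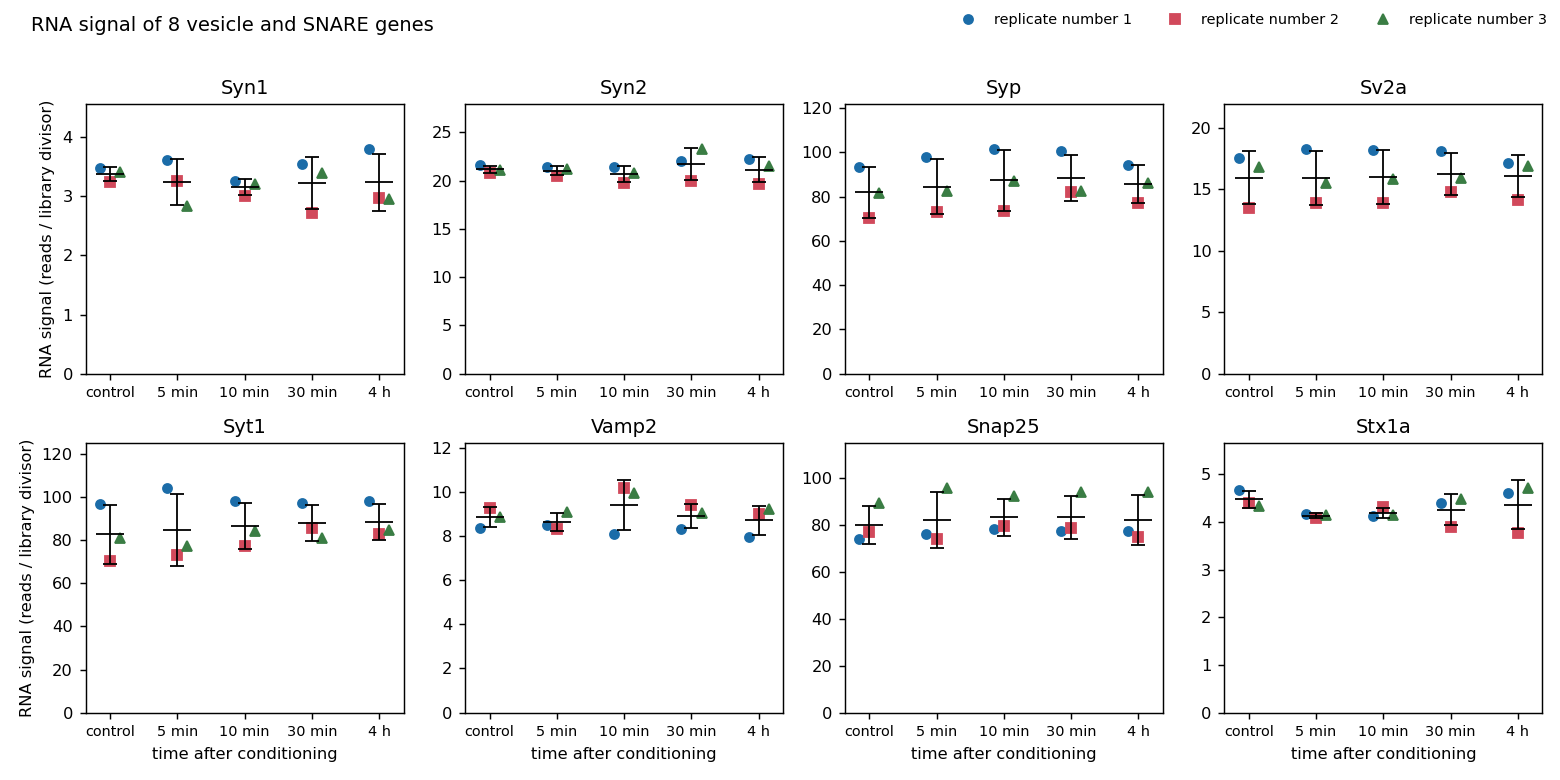
RNA signal of the 8 genes in the 15 tissue libraries by time after conditioning, with the mean and SD of 3 replicates in black and symbols for the replicate number. Syp, Syt1 and Sv2a of number 1 lie above the other 2 numbers at every time, and Snap25 of number 3 lies above the rest.

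Cell-type markers moved with the number as well. Choroid plexus genes, all 8 of which were listed, summed to an RPF signal of 1314 to 2090 in number 1, 923 to 1900 in number 2 and 68.6 to 495 in number 3, with Ttr, the thyroxine carrier, among them and none at 0 in any library. The 9 listed neuron markers summed to 359 to 381, 313 to 329 and 325 to 347 in RPF, with the highest values in number 1, as for Sv2a and Syn1. The 8 astrocyte markers summed to 516 to 558, 376 to 474 and 430 to 490 in the same order. In such bulk tissue fewer cells of a type and less RNA per cell cannot be told apart, and the part of these markers in the members' values was not tested.

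Genes outside the set were ranked by the Pearson correlation of their log2(signal + 1) with the members' mean profile over 15 libraries, as a description. That profile is the mean of the 8 members' log2 values, each centred on its own mean and not scaled by its spread. The nearest in RNA were Syt11 (0.96), Smcr8, Slc32a1, Letm1 and Crtac1 (0.94), and in RPF Fmnl2 (0.84), Cct2, Orc2, Zfp148 and Etv5 (0.82). The libraries fall into 3 sets by number, so a correlation over them mostly compares those sets. Vamp2 ran against the members' mean itself (-0.41 in RNA and -0.26 in RPF), while Sv2a (0.95) and Syp (0.89) were closest to it in RNA. Each member is part of that mean, so its correlation with the mean is partly built in.

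In primary culture, dissociated hippocampal cells grown in a dish, the members again had a TE above the median gene, while their levels lay on both sides of those of the tissue. Levels are given as RPM, reads per 1000000 reads on listed genes, with exact Poisson 95% intervals that cover counting error only. The culture and tissue tables list different genes and were scaled separately, and 1 library of each kind allows no test.

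Stx1a was the member most raised in culture. It had 228 RPM in RPF (interval 221 to 235) and 182 RPM in RNA (173 to 192), against means of 112 and 72.2 in control hippocampus, which is 2.04-fold and 2.52-fold. Of the 10162 genes listed in both tables, 13.4% were more than 2-fold higher in RPF and 14.7% in RNA. Syn1 (776 RPM in RPF, 1.84-fold, and 94.7 RPM in RNA, 1.74-fold) and Sv2a (1045 RPM in RPF, 1.70-fold, and 497 RPM in RNA, 1.94-fold) were also higher than in control hippocampus in both kinds.

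Snap25 and Syt1 lay on the other side. Snap25 had 1181 RPM in RPF and 706 RPM in RNA in culture, which is 0.428 and 0.545 times the control mean, and Syt1 had 1098 RPM in RPF and 690 RPM in RNA, which is 0.482 and 0.521 times. Over all shared genes, 12.6% in RPF and 8.75% in RNA were more than 2-fold lower. The median shared gene lay at 0.06 in RPF and 0.21 in RNA on the log2 scale of culture over control hippocampus, so folds in RNA are to be read against that shift. Vamp2 was at 0.542 times in RPF and 1.02 times in RNA. Syp was at 0.993 times in RPF and 1.28 times in RNA, and Syn2 at 0.816 times in RPF and 0.978 times in RNA. The SNARE partners thus did not keep one ratio between culture and tissue, with Stx1a up and Snap25 down in both kinds of library.

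The make-up of the cells differed beside this. In RPM of RPF, the neuron markers summed to 3413 in culture, against 5331 in control hippocampus, and astrocyte markers to 4120, against 7100. Oligodendrocyte markers summed to 25.8, against 5636, with 3 of 8 listed in culture. Choroid plexus markers summed to 28.2, with 2 of 8 listed, against a mean of 21891 that ran from 2868 to 31503 over the 3 control libraries. Endothelial markers, with 1 of 6 listed in culture, summed to 197, against 176 (126 to 229 over the 3 control libraries). The part of this make-up in the members' values was not tested.

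TE in culture ran in the same order of the 8 genes as the estimates in control hippocampus. Several neighbours lay close together, and 1 library of each kind allows no test of that order. The zero points differ slightly: in tissue each library was centred on its median gene, in culture the ratio itself on its median. By the tissue centring the median over all genes tested was 0.06 and not 0. Syn1 had an RPF signal of 46.0 and an RNA signal of 4.86, a ratio of 9.46 and a TE of 2.94 on the log2 scale, rank 3 of 6804 genes. Its TE in control hippocampus was 2.55 to 2.77. Vamp2 is the member that moved most: its TE was 1.22 in culture, against 1.93 to 2.11 in the control samples. Sv2a, Syp, Snap25, Syt1, Syn2 and Stx1a had a TE of 1.18, 0.89, 0.87, 0.80, 0.55 and 0.43 in culture. Stx1a was again the lowest, at rank 1633, and all 8 members lay above the median gene.

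**Figure D5:**
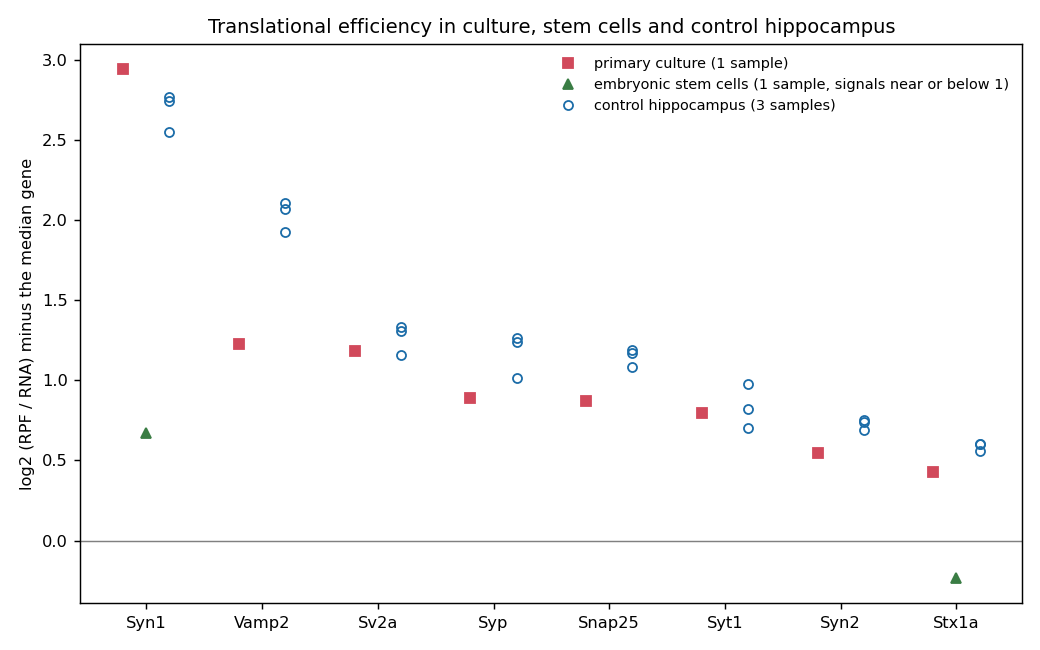
TE of the 8 genes in primary culture (squares), in ESC for the 2 listed genes (triangles) and in 3 control hippocampus samples (circles), as a log2 ratio of RPF to RNA. Hippocampus libraries were each centred on their median gene, while in culture and ESC the ratio itself was centred on its median. Syn1 is highest and Stx1a lowest of the 8 in culture and in hippocampus, and Vamp2 in culture lies at 1.22, below its control values.

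In ESC, which carry the pluripotency markers (all 8 of that list were listed, with 5871 RPM in RPF in sum, against 50.2 in control hippocampus), little of the set was measured. Syn1 had 796 RPF reads and 46 RNA reads, or 12.2 (11.4 to 13.1) and 2.76 (2.02 to 3.68) RPM, which is 34.5-fold and 19.8-fold lower than in control hippocampus. Stx1a had 118 RPF and 45 RNA reads, or 1.81 (1.499 to 2.17) and 2.70 (1.97 to 3.61) RPM, which is 61.6-fold and 26.8-fold lower. Of all genes listed in tissue as well, 34.6% in RPF and 32.6% in RNA were more than 2-fold lower. Syn2, Syp, Sv2a, Syt1, Vamp2 and Snap25 are not among the genes listed for ESC, and no value is given for them. Syn1 had an RPF to RNA ratio of 5.65, and Stx1a one of 0.857. With signals of 1.21 and 0.214 the TE of Syn1 depends on the constant added before the logarithm, being 0.67 with 1 and 1.82 with 0.1, and a value for these genes in ESC is therefore not read further.

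Neighbouring transcripts may bear on some of these counts, which was not tested. By the RefSeq annotation, Timp1 lies within the span of Syn1 and Timp4 within that of Syn2, and Araf overlaps Syn1. Timp1 was not among the genes listed for the tissue. Timp4 had an RPF signal of 2.58 to 3.89 and Araf one of 11.3 to 16.3 over the 15 tissue libraries. Whether the counting used the strand was not given in the sources used here. Reads from the overlap of Araf and Syn1 cannot be assigned to one of them with certainty.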

How the data were processed

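Ribosome footprints (RPF) and RNA of mouse hippocampus, hippocampal culture and ESC had been sequenced; the submitters' processing notes name CASAVA 1.8.2, Bowtie 1.1.1 and the build mm9. The deposited values, called signal here, are whole reads divided by 1 divisor per library (within 0.001 reads after multiplication). What the divisor stands for, and how the authors counted reads, were not given in the sources used here. The deposited mean columns equal the replicate means, and the log2 ratios of a time to control that the authors deposited were not used for any result.

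The 8 members and the gene lists were chosen with earlier results of these data known. The tests were run on the signal and not on counts: limma 3.58.1 in R 4.3.3 (lmFit, eBayes with trend) on log2(signal + 1), genes with a mean of at least 1, all 5 groups in 1 model without a block, 2-sided, Benjamini-Hochberg over all genes, threshold 0.05. Such log2 changes understate the change of low genes. TE was the interaction in a model of 30 libraries, and baseline TE the contrast of RPF and RNA in control after centring each library on its median gene. In culture and ESC the log2 ratio was centred on its own median over genes with a signal of at least 1 in both kinds. The fits were tested on simulated data with independent noise. For the time contrasts no effect of the replicate number was simulated, so those runs do not cover that feature of the data. Named genes were the members, the pathway genes past the threshold or, with none, those with the 3 smallest p in RPF and in RNA, and the 3 highest and 3 lowest of the pathway in baseline TE.

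Replicate numbers paired the samples: deviations from the group means correlated at 0.40 to 0.94 between same-numbered RPF libraries and at 0.27 to 0.87 between RNA libraries, over 30 pairs each. The pairing comes from the data, since the labels do not say what a number marks. Alternatives covered the constant, the filter, the scaling, robust variances, the block, each replicate left out and, chosen after seeing the data, voom and median-of-ratios scaling. Intervals for single libraries are exact Poisson 95% intervals for counting error only, computed with scipy 1.17.1.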

Additional observations from a re-analysis of the deposited data

How the results depend on the processing

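The 290 alternative counts of members called stayed within 1.5 times the count reported, and no member's called difference changed its direction. With the replicate number as a block, 0 members were called at any time in RPF, RNA or TE, as without it, and the baseline TE calls of the members were the same. Over all genes the block added the few calls given with the results on conditioning. Over the alternatives the members' changes after conditioning lay between -0.15 and 0.17 in RPF, between -0.17 and 0.23 in RNA and between -0.19 and 0.20 in TE on the log2 scale, with a smallest adjusted p of 0.587, 0.34 and 0.893 by limma. Baseline TE stayed above the median gene for all 8 (6 of them tested, and called, with a mean signal of at least 5), between 2.65 and 3.02 for Syn1 and between 0.58 and 0.70 for Stx1a. The test of the replicate number was the least stable: in place of 5 members in RPF and 7 in RNA, it called 4 and 5 under voom, 5 in RNA under median centring and under median-of-ratios scaling, and 6 in RNA with a mean signal of at least 5. It called 4 and 8 without the 10 min group and 4 and 6 without the 4 h group. Voom and median-of-ratios scaling were chosen after seeing the data. Without a filter on low values, 1 gene was called in RPF at 10 min and 1 at 30 min, neither a member. Of the single values that were not called, 21 moved by more than their error. All were under voom or, for Syn1 in culture (3.13) and in ESC (1.82), with a constant of 0.1. That error was the SD within groups for tissue, and counting error only for culture and ESC. Called values, such as the baseline TE of the members, were checked for a lost call or a changed direction and not for the size of a shift. The planned edgeR and DESeq2 fits and TMM scaling were not run. The deposited values are not counts, but whole reads were recovered from them, and voom and the Poisson intervals used those reads. With 3 replicates a group, changes within the intervals given are not excluded. The intervals are no limit of detection, since the adjusted test over all genes is stricter. Culture and ESC had 1 library of each kind.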
